A study of Mus musculus with 8 samples.

Results

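The Foxk1 peaks described here were those of a 450 kb window of mouse chromosome 6, from 17.15 to 17.60 Mb on the mm9 assembly, defined as the stretch that holds the genes Cav2, Cav1 and Met. Members were selected on the position of their summit in the deposited list, and 30 of its 28933 peaks qualified. The locus was proposed with the number and signal values of its peaks known, so these are given as a description. Chromosome 6 as a whole held 2075. The study immunoprecipitated chromatin from untreated mouse embryonic fibroblasts (MEFs), connective-tissue cells cultured from embryos, grown in DMEM, in 3 libraries with anti-Foxk1 antibody and in 3 with control IgG, while 2 more libraries were made from input. The labels name no strain, genotype or embryonic age. The table analysed was 1 peak list, a comparison of Foxk1 with input according to its track line, with 1 signal value and 1 q-value per peak. Read depth is unknown, no value per library or for IgG was analysed, and no result below has a replicate error or a test. In the absence of IgG values, Foxk1 binding and unspecific enrichment cannot be told apart.

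Foxk1 is a forkhead transcription factor, which binds DNA through a winged-helix domain and is best known as a repressor. Cav1 encodes caveolin-1, the main coat protein of caveolae, the small flask-shaped pits of the plasma membrane that are abundant in fibroblasts. Cav2 encodes caveolin-2, which assembles with caveolin-1 into the same coat and depends on it to reach the cell surface. Met encodes the receptor tyrosine kinase for hepatocyte growth factor, a growth factor that mesenchymal cells secrete and that drives epithelial cells to divide and scatter. In the RefSeq gene table of the GRCm38.p6 assembly, Cav2, Cav1 and Met follow each other in this order along chromosome 6. The next protein-coding genes are Tes on the Cav2 side, which encodes testin, a LIM-domain protein of focal adhesions, and Capza2 and St7 on the Met side. Capza2 encodes a subunit of the actin capping protein. That table belongs to a different assembly from the peaks, so its positions were not set against them and no peak is assigned to a gene, promoter, exon or intron. That the 3 genes lie in the window rests on its definition, and the list held no value per gene against which to check it.

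The forkhead family recognises DNA around a core read as TGTTTAC, or more loosely TGTTTNC, which includes the former. Promoter sequence was available for the 3 genes from RefSeq (GRCm38.p6), and the 250 bases before each listed start were searched on both strands for both words. The strict word was in none of the 4 starts listed for Cav2 (1 start), Cav1 (2 starts) and Met (1 start). The loose word occurred 1 time, before Cav2, where its first base on the strand shown lies 52 bases before the start. Of all 32851 RefSeq promoters, 3.17% held TGTTTAC and 17.8% held TGTTTNC in the same 250 bases. The sequences upstream of the neighbouring caveolin genes are shown to set the one with a match beside one without. Both are on the plus strand of chromosome 6 and read 5′ to 3′, and the capitals mark the match, which reads as TGTTTGC on the minus strand.
Cav2: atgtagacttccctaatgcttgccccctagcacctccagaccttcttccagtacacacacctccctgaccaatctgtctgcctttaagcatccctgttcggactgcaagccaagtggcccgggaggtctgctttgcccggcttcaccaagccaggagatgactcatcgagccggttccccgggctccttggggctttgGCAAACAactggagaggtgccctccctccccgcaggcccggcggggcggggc
Cav1: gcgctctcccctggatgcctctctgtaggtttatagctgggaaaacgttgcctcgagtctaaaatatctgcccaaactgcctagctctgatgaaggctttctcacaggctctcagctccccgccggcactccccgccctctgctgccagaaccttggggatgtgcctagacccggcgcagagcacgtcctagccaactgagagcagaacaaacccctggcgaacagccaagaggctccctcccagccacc
The first start of Cav1, shown here, and its second start both lacked the word, as did the start of Met. The GC content of these 250 bases was 62% for Cav2, 59.6% and 60.8% for Cav1 and 74% for Met, against a median of 52.4% over all promoters. A match is a run of letters and not a site, and its absence says only that these letters are not in the window. Whether any peak covers these promoters was not tested, because the peaks are on mm9.

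The strongest peak of the locus lay at chr6:17358020-17358479, with a signal value of 105.7 and the lowest q-value of the list (0.00014). The signal value is the authors' score for a peak, on a scale that no label or header states. It ranked 376 of 28933 in the whole list and 38 of 2075 on chromosome 6. It was the third strongest of the surrounding 1 Mb, from 17 to 18 Mb. Next in the locus came chr6:17499502-17499961 with a signal value of 68.6 (rank 1124 in the list), chr6:17451438-17451897 with 57.5 (rank 1713), and chr6:17448836-17449295 with 53.0 (rank 2053). The fifth, chr6:17208120-17208579, had 49.0 (rank 2411). These 5 peaks lay in 4 separate places, and the closest of them were the peaks with 57.5 and 53.0, whose summits were 2602 bp apart.

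Most members were of ordinary strength. Their signal values ran from 11.45, near the lowest value listed (11.32), to 105.7, with a median of 18.4 against 17.8 over the whole list. At or above the median of the list were 16 of 30, where the list has 50% by definition. Signal values of 50 or more were found in 4 of 30 (13.3%), against 7.97% of all peaks. A limit of 30 was reached by 10 of 30 (33.3%), against 21.7%. A limit of 100 was reached by 1 of 30, against 1.47%. The lowest q-value was held by 7 of 30 (23.3%), against 12.3% of all peaks but 25% in the rest of the surrounding 1 Mb. These shares rest on few peaks, which were known when the locus was proposed, and whether the locus differs from the list in strength was not tested. The 4 strongest peaks held 34.2% of the summed signal of the locus and the 7 strongest held 50.4%.

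**Figure D1:**
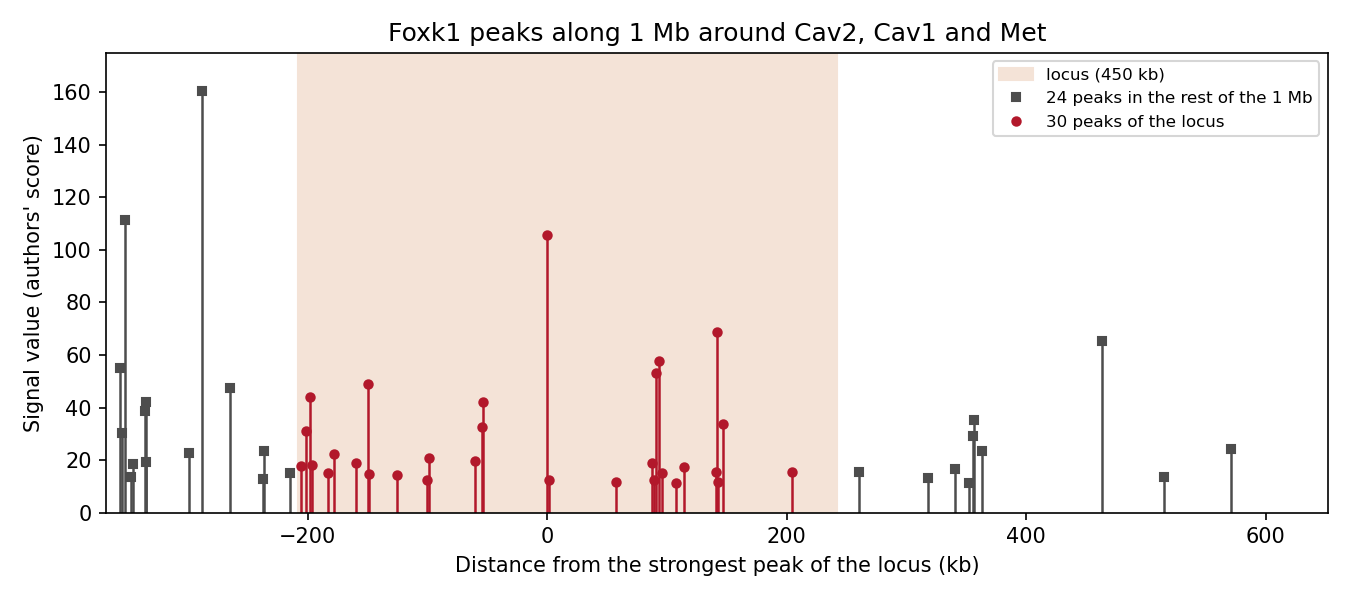
Signal value of each Foxk1 peak (authors' score) against its distance in kb from the strongest peak of the locus, over the surrounding 1 Mb. The shaded band is the 450 kb locus with its 30 peaks (circles); squares are the 24 other peaks, of which the highest, at 160.7, lies to the left of the band.

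The locus was dense in peaks. It carried 66.7 peaks per Mb, against 13.7 over the rest of chromosome 6 and 10.97 over the rest of all chromosomes except Y, ratios of 4.86 and 6.08. In 5844 consecutive windows of 450 kb, the median was 3 peaks and the highest 43. More than 30 peaks were found in 7 of these windows, and 12 (0.205%) held 30 or more. Windows that overlap the locus were not left out, and the 7 include the window that covers most of it. With the windows shifted by 150 kb, 17 of 5840 held more. Of 13165 windows of 200 kb, 179 (1.36%) held at least the 13 peaks found in 200 kb around the centre of the locus. The edges of the locus were chosen around its genes with results of these data known, whereas the windows have fixed edges, so that this rank is a description. Those with signal values of 50 or more numbered 8.89 per Mb in the locus and 1.31 over the rest of chromosome 6, but 7.27 in the rest of the surrounding 1 Mb and 20 in the 150 kb to its left. A peak at least as strong as the highest of the locus occurred in 334 windows of 450 kb, counting the window that holds this peak itself. This count also took in the incomplete last window of each chromosome, which the 5844 leave out.

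**Figure D2:**
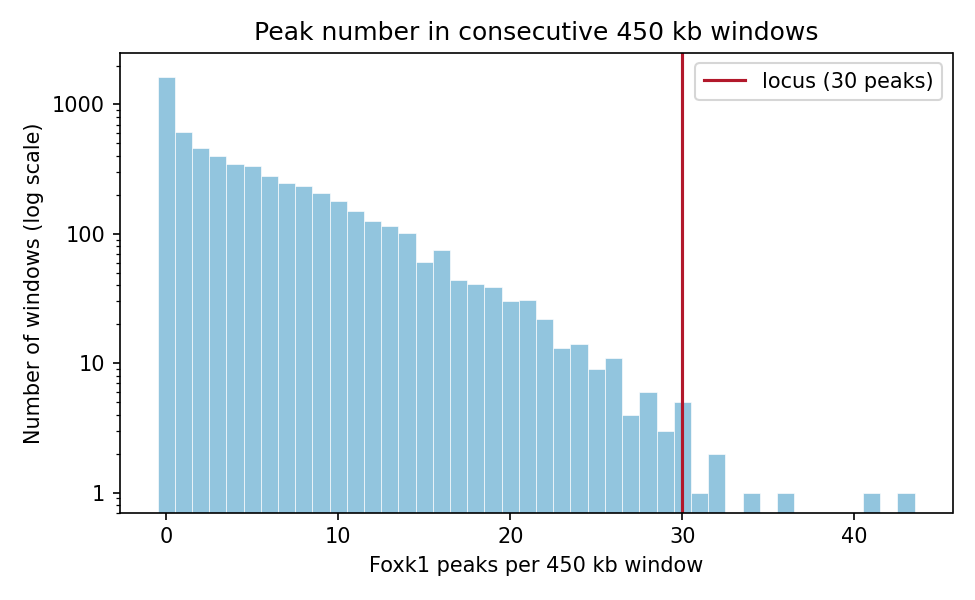
Number of consecutive 450 kb windows (log scale) against the Foxk1 peaks in each, over all chromosomes except Y. The line marks the 30 peaks of the locus. The median window holds 3, and 7 windows hold more than the locus, among them the window that covers most of it.

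The neighbouring sequence was dense in peaks as well, mainly on one side. The rest of the surrounding 1 Mb held 24 peaks, or 43.6 per Mb. The density of the locus was 1.53 times as high, a difference that was not tested. Its peaks were unevenly placed. The 150 kb to the left, on the Tes side if the gene order of GRCm38.p6 also holds on mm9, carried 14 peaks or 93.3 per Mb, more than the locus. The 400 kb to the right carried 10, or 25 per Mb. The left stretch also held both peaks of the 1 Mb that exceeded the strongest of the locus, at chr6:17069472-17069931 with a signal value of 160.7 (rank 116 in the list) and chr6:17005656-17006115 with 111.6 (rank 315). The highest on the right was chr6:17821806-17822265, with 65.3.

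Median signal values were 26.8 for the 14 peaks on the left, 18.4 for the 30 of the locus, and 20.1 for the 10 on the right. The shares reaching 50 were 3 of 14 on the left, 4 of 30 in the locus and 1 of 10 on the right. The lowest q-value was held by 5 of 14 on the left, 7 of 30 in the locus and 1 of 10 on the right.

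**Figure D3:**
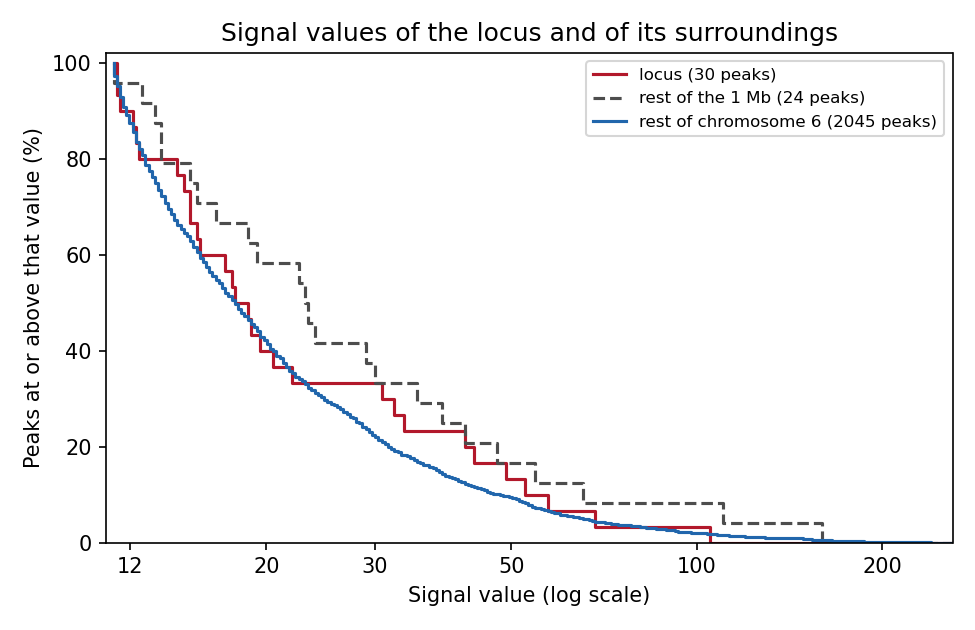
Percentage of peaks at or above each signal value (log scale) for the 30 peaks of the locus, the 24 of the rest of the 1 Mb and the 2045 of the rest of chromosome 6. At the median the locus is near the chromosome (18.4 and 17.9) and below the rest of the 1 Mb (23.5), while at a limit of 30 it stands at 33.3%, nearer to the rest of the 1 Mb (37.5%) than to the chromosome (22.4%).

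At the left edge of the locus, the first member had its summit at 17152507 with a signal value of 17.7, and the last peak before it was at 17143710 with 15.1, only 8.80 kb away. The edge therefore separates neighbouring peaks that lie close together. The next summit further left, at 17121586, was another 22.1 kb away. At the right edge, the last member was at 17562795 with a signal value of 15.6. The next peak outside was at 17618885 with 15.5, at a distance of 56.1 kb.

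Within the locus many peaks lay close together, in clumps described below. The median distance between neighbouring summits was 5.52 kb, against 19.0 kb on the rest of chromosome 6 and 24.8 kb in the whole list. With summits closer than 2000 bp merged, it was 12.1 kb against 34.1 kb in the list. Another summit lay within 2000 bp of 15 of 30 members (50%) and within 10 kb of 27 of 30 (90%), against 25.8% and 52.3% of all peaks. Shorter distances and more close neighbours go with a higher density of peaks, and these comparisons were not matched for density. Whether the peaks lie closer than their density alone would give was not tested. In the 150 kb to the left of the locus the median distance was 4.50 kb. There, 7 of 14 peaks had another summit within 2000 bp and 11 of 14 (78.6%) within 10 kb, so that close spacing was not particular to the locus. On the right the median distance was 22.9 kb. Joining summits at most 10 kb from the next gave 12 groups, of which 5 had 3 or more peaks and held 19 of the 30 members. There were 4 pairs and 3 single peaks.

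The leftmost clump of the locus had 4 peaks over 8.97 kb, with summits at 17152507, 17157059, 17160012 and 17161479. Their signal values were 17.7, 30.9, 44.0 and 17.99, so that the highest was the one at 17160012. The peak outside the edge at 17143710 was within 10 kb of the first, so the size and span of this clump depend on the edge. A pair followed at 17175012 and 17180529 with signal values of 15.1 and 22.2. A further 3 summits lay at 17198385, 17208350 and 17209132, with 18.9, 49.0 and 14.8. The summits at 17208350 and 17209132 were 782 bp apart and differed 3.30-fold in signal value.

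More widely spaced peaks came next. A single peak at 17232721 had a signal value of 14.5, and its nearest neighbours were 23.6 kb and 25.2 kb away. The pair at 17257915 and 17259386 had 12.3 and 20.7. After a gap of 38.8 kb came 3 summits at 17298137, 17304015 and 17304411, with signal values of 19.7, 32.4 and 42.3. The latter pair, 396 bp apart, was the one pair of the locus whose 460 bp intervals overlapped, by 64 bp.

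The strongest peak stood in a stretch with fewer peaks per Mb than the locus as a whole. Between the summits at 17304411 and 17445715 lay 141 kb with 3 peaks: the strongest, its companion and 1 weak peak. This is 21.2 per Mb, still above the 13.7 of the rest of chromosome 6. The stretch was drawn from summit to summit across long gaps, and the summits at its ends were not counted. A low density follows in part from that choice. The companion, at 17359816, was 1566 bp from the strongest and had a signal value of 12.4, so that the pair differed 8.50-fold, more than any other neighbours of the locus. The nearest summits beyond this pair were 53.8 kb to the left and 55.5 kb to the right. The weak peak at 17415351 had a signal value of 11.6 and a q-value of 0.00782, where the highest q-value of the list was 0.00995.

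To the right of this stretch was the fullest clump of the locus, counting members only, with 5 peaks over 8.22 kb and 18.8% of its summed signal. Its summits were at 17445715, 17447850, 17449066, 17451668 and 17453937. Their signal values were 18.8, 12.4, 53.0, 57.5 and 15.1, so that both high peaks lay inside and the weaker ones around them. The pair at 17466011 and 17472132 had 11.45 and 17.3, and the former was the weakest of the 30. The clump around the second strongest peak spanned 6.02 kb, with summits at 17498957, 17499732, 17500590 and 17504981 and signal values of 15.6, 68.6, 11.5 and 33.8. Here the high peak was flanked at 775 and 858 bp by peaks 4.39-fold and 5.94-fold lower. The series ended with the single peak at 17562795, after the longest gap of the locus (57.8 kb).

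**Figure D4:**
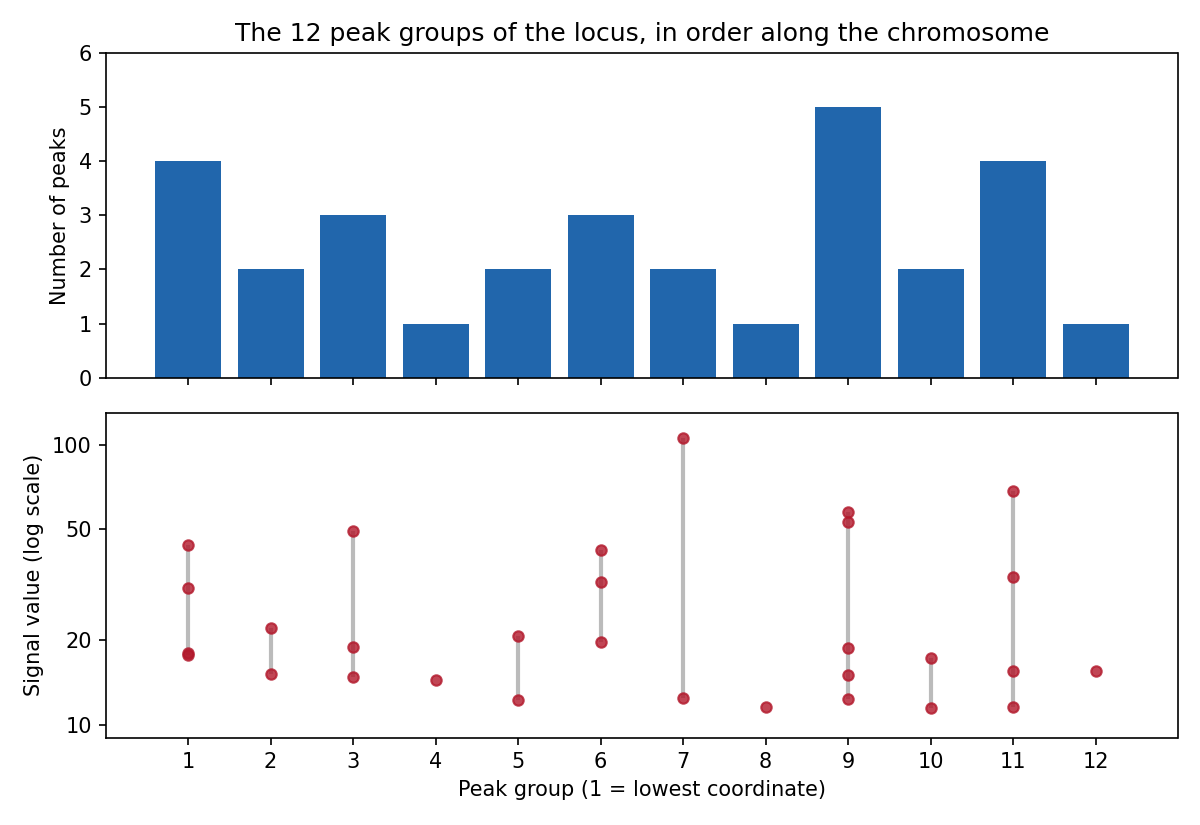
The 12 groups of neighbouring peaks (summits at most 10 kb from the next), numbered along the chromosome. The bars give the peaks per group, and the points the signal value of each peak on a log scale, joined by a line from lowest to highest; the group of 5 is the ninth and the strongest peak, at 105.7, is in the seventh.

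Close companions were counted last. Of the 7 members at the lowest q-value, all with signal values of at least 42.3, 6 had another summit within 2000 bp, and the exception, at 17451668, had one at 2269 bp. Among the 23 other members, 9 did (39.1%). Most of these 9 lay within 2000 bp of a member at the lowest q-value, so both shares largely count the same pairs. In the whole list the shares were 29.6% of the 3564 peaks at the lowest q-value and 25.2% of the others. This comparison was chosen after the values were seen and rests on 7 peaks that lie in 6 of the groups. It was not matched for density, which is lower over the whole list. In the 150 kb to the left, the peaks of lowest q-value at 17001770 and 17023037 had another summit within 2000 bp. Those at 17005886, 17069702 and 17093372 did not. Whether close summits are separate sites or parts of 1 broad signal was not tested.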

How the data were processed

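The antibody label gave the groups, with input named by the titles. Reads were aligned to mm9 with Bowtie, per the submitters' processing notes; the peak caller, its settings and any pooling of libraries are not stated there. The authors deposited a signal value per peak, a score with no stated scale, and a q-value on a linear scale. All peaks are 460 bp wide.

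The window, its genes and the limits were chosen with earlier results of these data known, so no test was made and all values are descriptions. A peak belonged to the locus if its summit, start plus offset, lay in it; coordinates are printed 1-based on mm9. For density, the length of a chromosome was the end of its last peak, and Y was left out. Procedures were tested on simulated positions with planted peaks. A genome and gene positions of mm9 were not used here, so the planned placement of peaks by gene, the caveola and Met pathway lists and motifs at peaks were not run. Promoter letters came from RefSeq (GRCm38.p6). All members, the 5 strongest first, were named by rule, as were the strongest and nearest peaks outside. Alternatives were limits on q and signal, merged summits, other comparison regions, gap lengths and windows. Computation used Python 3.11.15, numpy 2.4.6, pandas 2.3.3, scipy 1.17.1 and matplotlib 3.10.9.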

Additional observations from a re-analysis of the deposited data

How the results depend on the processing

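The number of peaks in the locus was 30 also when any overlap with the window counted, and 22 with summits closer than 2000 bp merged. A q-value of at most 0.001 left 17 and a signal value at or above the median of the list left 16, since each of these limits removes peaks. Relative to the rest of the 1 Mb, the density ratio of 1.53 became 1.22 to 1.42 under the q limit, the signal limit and merging. It was 4.86 against the rest of chromosome 6 and 6.08 against all chromosomes. Set against each side alone, a comparison chosen after seeing the data, it turned to 0.71 against the 150 kb to the left and was 2.67 against the 400 kb to the right. The median signal value of 18.4 was 32.4 at a q-value of at most 0.001, where that of the list was 27.2. The share of 13.3% at a signal value of at least 50 was 33.3% at a limit of 30 and 3.33% at 100. The strongest peak ranked 376 in the list, 38 on chromosome 6 and 373 after merging. By number of peaks the locus ranked 8 of 5844 windows and 18 of 5840 with windows shifted by 150 kb. Around the same centre, 200 kb with 13 peaks ranked 123 of 13165. A stretch of 1 Mb around that centre, with 55 peaks, ranked 5 of 2625, but it reaches beyond the locus and includes peaks outside it. Windows that overlap the locus were not left out of these ranks. Groups numbered 16 with gaps of at most 5 kb and 9 with 20 kb, against 12. Median spacing was 12.1 kb after merging, against 34.1 kb in the list.

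No paired analysis was possible because the list holds no value per replicate, which also prevented leaving out a replicate. Depth is unknown, so in a stretch without peaks none was detected at the threshold of the list, and absence of Foxk1 is not shown.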
